A study of Mus musculus with 4 samples.

Results

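Fshr, Inha, Inhbb, Amh, Sox9, Wt1, Gata4, Dhh, Cldn11 and Clu are genes whose products mark or serve Sertoli cells, the somatic cells that surround and nourish germ cells inside the seminiferous tubule. CpG methylation of these 10 genes was read from whole-genome bisulfite libraries of male germ cells. The 2 knockout samples came from Np95fl/fl:Stra8-Cre mice, in which both copies of Np95 (also named Uhrf1) are floxed and a Cre recombinase driven by the Stra8 promoter, active in premeiotic male germ cells, deletes them. The 2 control samples came from Np95fl/fl mice, which carry the same floxed alleles without Cre. All mice were 21 days old, and the cells came from tubules picked by hand, dissociated and filtered through a mesh against interstitial cells. That step does not select against Sertoli cells, which lie within the tubule, and Stra8-Cre does not target them. The genes were chosen by name, as 10 of 26799 genes whose strand was known, and each was followed over its RefSeq span with 5000 bp on either side. No RNA was measured, so whether these genes were active in the samples is unknown, and the name Sertoli cell gene rests on the genes' known use alone.

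Np95 binds hemimethylated CpGs behind the replication fork and recruits the maintenance methyltransferase Dnmt1, so that the new DNA strand takes over the pattern of the old one. In most mammalian genes the CpG-rich promoter is unmethylated in every cell type and the body is methylated, while promoters with few CpGs are often methylated in cells that do not use the gene. Follicle-stimulating hormone acts on Sertoli cells through the receptor encoded by Fshr. Inha and Inhbb encode the subunits of inhibin B, by which the Sertoli cell restrains the pituitary, and Amh encodes the hormone that removes the Müllerian ducts in male fetuses. Sox9, Wt1 and Gata4 encode transcription factors of the developing testis. Dhh encodes the hedgehog ligand that Sertoli cells send to Leydig and peritubular cells. Cldn11 encodes a tight junction protein of the blood-testis barrier, and Clu encodes clusterin, a secreted chaperone.

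The sequence around the start differs strongly between members in the number of CpGs, the only sites at which methylation was read. RefSeq promoters of GRCm38.p6, the build the files call mm10, run from 250 bases before the start to 50 after it and were at hand for Fshr, Inha, Inhbb, Dhh and Cldn11. Those of Inha, Fshr and Inhbb are shown because they differ in CpG number, with 5, 6 and 23. The Inha stretch lies wholly inside the gene's RefSeq span, which begins at position 75507077, so it is not the promoter at the outermost annotated start. Capitals mark each CpG.
Inha, chr1:75507359-75507658, plus strand: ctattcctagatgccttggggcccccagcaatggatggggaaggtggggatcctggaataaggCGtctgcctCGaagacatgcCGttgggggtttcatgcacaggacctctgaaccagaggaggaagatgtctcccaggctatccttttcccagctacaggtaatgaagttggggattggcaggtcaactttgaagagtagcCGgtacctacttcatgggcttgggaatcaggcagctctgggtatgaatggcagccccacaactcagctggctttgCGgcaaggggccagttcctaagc
Fshr, chr17:89200626-89200925, minus strand: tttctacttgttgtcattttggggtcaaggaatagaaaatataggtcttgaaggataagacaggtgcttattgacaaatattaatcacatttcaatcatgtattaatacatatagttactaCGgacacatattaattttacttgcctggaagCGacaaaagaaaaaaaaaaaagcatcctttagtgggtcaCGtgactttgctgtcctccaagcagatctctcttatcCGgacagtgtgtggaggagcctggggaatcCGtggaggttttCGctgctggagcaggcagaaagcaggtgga
Inhbb, chr1:119422199-119422498, minus strand: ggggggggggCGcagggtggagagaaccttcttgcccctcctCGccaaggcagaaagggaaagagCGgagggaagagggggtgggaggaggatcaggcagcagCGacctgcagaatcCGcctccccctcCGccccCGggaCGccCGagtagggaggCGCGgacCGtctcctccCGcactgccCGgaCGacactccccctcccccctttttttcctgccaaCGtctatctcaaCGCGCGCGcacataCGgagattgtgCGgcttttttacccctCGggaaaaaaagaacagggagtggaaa

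The Inha stretch holds 5 CpGs and the Fshr promoter 6, against a median of 7 over all promoters of this length in the table. Inhbb holds 23, Cldn11 24 and Dhh 12. Over its 300 bases the Inha stretch, which lies inside the gene, was methylated at 26.2% and 34.8% in the knockout samples. In the control samples it was at 59.2% and 72.4%, and both knockout values lay below both control values. The promoter window at the start of the Inha span, described below, had 4.77% and 6.08% in knockouts and 12.1% and 15.0% in controls. The Fshr promoter had 9.19% and 6.90% in knockouts and 6.52% and 8.42% in controls, over 6 of its 12 CpG cytosines, and the groups overlapped. The Inhbb promoter stood at 1.54% and 0.937% in knockouts and at 0.689% and 0.352% in controls. Cldn11 had 1.27% and 1.09% in knockouts and 0.555% and 0.454% in controls. Dhh had 0.767% and 0.253% in knockouts and 0.638% and 2.02% in controls, so the measured cytosines of the 4 promoters other than Inha were low in both groups. For Fshr these are the 3 CpGs nearest the start. Its CpG farthest upstream, not measured in all samples, had control values of 41.7% and 81.8% on one cytosine and of 43.8% and 53.3% on the other, where the single knockout value was 36.4%.

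Both strands of the 5 promoters were searched for 5 short motifs. The single match was CACGTG, an E-box of the kind bound by the upstream stimulatory factors, in Fshr 61 bases before the start, and 7.15% of 32851 promoters of the same length hold it. AAGGTCA, a site of the nuclear receptor Nr5a1, occurs in 4.72% of all promoters and in none of these 5. AGATAA, read by the GATA factors, occurs in 11.2% of all promoters and in none of these. AACAAT, read by SOX factors, occurs in 10.7% and in none of these. TATAAA, the core of the box bound by the TATA-binding protein, occurs in 13.6% and in none of these. With no other match, no motif overlapped the E-box. The CpG inside the Fshr E-box had no cytosine with a value in all 4 samples, so it entered no comparison. One of its cytosines had 0% in the single knockout sample with a value and 21.4% and 36.4% in controls. The other had 18.2% in the single knockout sample with a value and 5.56% and 8.70% in controls. These E-box values were picked out after they were seen.

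Along the 10 genes and their flanks, methylation was lower in the knockout samples in nearly every window that was methylated in the control samples. The genome was divided into 1-kb windows, and 399 of the 498 windows at these genes had 3 or more CpGs with values in all 4 samples. The median window level was 38.0% and 40.7% in the knockout samples and 82.5% and 88.8% in the control samples. A window was called where limma, fitted over all 1566488 windows of the genome, gave a Benjamini-Hochberg adjusted p under 0.05 and the group means differed by at least 10 percentage points. By this rule 329 of the 399 windows (82.5%) were lower in knockouts, against 93.4% of windows in the genome, and 1 was higher, against 0.137% in the genome (2151 windows, and 5942 without knockout replicate 2). Both knockout values lay below both control values in 346 windows (86.7%), against 95.7% in the genome. The share called lower was thus smaller at these genes than in the genome, and without Fshr, whose long body supplies 136 windows, it was 197 of 263 (74.9%). With each window tested on its own spread alone, 191 of 399 were called lower, against 54.9% of windows in the genome.

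The windows not called were almost all ones with little methylation in the controls. Of the 399 windows, 68 (17.0%) had a control mean under 20%, against 4.44% of windows in the genome. In these 68 the median level was 3.04% in knockouts and 2.47% in controls, with 2 windows called lower and 1 higher. Of the genome's windows of that class, 0.727% were called lower and 3.04% higher. Of the 60 windows with a control mean of 20% to 80%, 56 were lower in knockouts, against 87.1% of that class in the genome. All 271 windows with a control mean of 80% or more were lower in knockouts, against 99.9% of that class in the genome. The median of the 271 was 43.9% in knockouts and 88.7% in controls. They retained a median of 49.7% of the control level, and the genome's windows of that class retained 52.6%, with 40.7% to 65.0% covering its 5th to 95th percentile. Because the control values that are compared also defined the classes, these counts are descriptions and no test. Windows with more CpGs had less methylation in both groups, with a Spearman correlation across the 399 windows of -0.54 in knockouts and -0.52 in controls. Neighbouring windows share a gene and a library and are not independent.

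**Figure D1:**
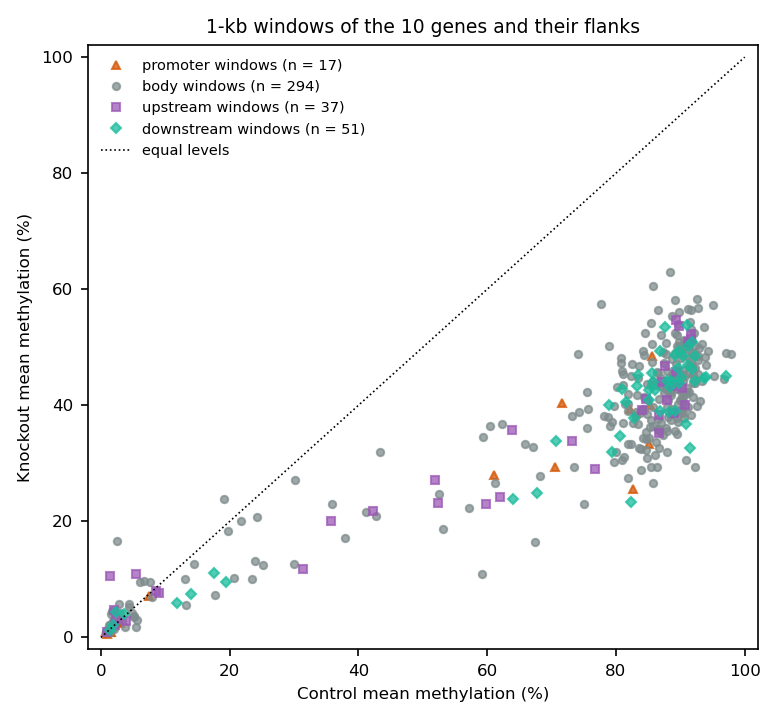
Each point is a 1-kb window of the 10 genes and their flanks, with the mean of the 2 knockout samples on the vertical axis and the mean of the 2 control samples on the horizontal axis, both in percent methylation. The 271 windows at 80% or more in controls lie far below the dotted line of equal levels, with a median of 43.9% in knockouts, and the 68 windows under 20% in controls lie near it.

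High levels were common among cytosines in the controls and rare in the knockouts, where intermediate levels made up a larger share. Of the 9146 cytosines at these genes with values in all samples, 0.405% and 0.437% were methylated at 80% or more in the knockout samples, against 30.9% and 37.4% in the control samples. The share between 20% and 80% was 41.5% and 43.6% in knockouts and 17.2% and 11.2% in controls. Cytosines at 20% or less were the majority in every sample, at 58.1% and 56.0% in knockouts and 51.9% and 51.4% in controls, so most cytosines of these genes had little methylation in either group. The samples are mixtures of cells, and a change in the share of a cell type cannot be told apart from a change of methylation within cells. The 11 measured promoters of germline genes that somatic cells keep methylated, taken as markers of somatic DNA, had medians of 17.7% and 11.4% in the knockout samples and 7.48% and 5.63% in the control samples. All 9 maternally methylated imprinted promoters other than Snrpn were between 4.97% and 14.3% in knockouts and between 2.64% and 13.8% in controls. Their medians were 11.6% and 7.52% in knockouts and 7.55% and 4.43% in controls. With Snrpn counted, whose window lies at the outermost start of a long span, 5 of 10 had both knockout values above both control values. In 1, that of Snrpn, both were below. The part of these shifts in the values of the Sertoli cell genes was not tested.

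At the promoters, 2 of the 10 genes, Amh and Gata4, were lower in the knockouts and none was higher. A promoter was taken from 1000 bp before to 500 bp after the gene start by strand, and limma was fitted over 23104 promoters, of which 42.8% were called lower and 0.281% higher. Leaving out knockout replicate 1 gave 35 higher promoters in place of 65, and leaving out replicate 2 gave 196. With no minimum difference 6 of the 10 were called lower, against 52.7% of all promoters. A promoter nearly free of methylation in controls cannot lose 10 points, and 54.8% of all promoters, like 7 of these 10, were under 20% in controls. Whether the 2 samples of each genotype came from different animals is not stated in the labels, so the spread behind each p-value may be technical only. With each promoter tested on its own spread alone, without the variance shared across promoters, none of the 10 was called at an adjusted p under 0.05 in limma, 4 had an unadjusted p under 0.05, and 15 promoters in the whole genome (0.0649%) were called lower.

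**Figure D2:**
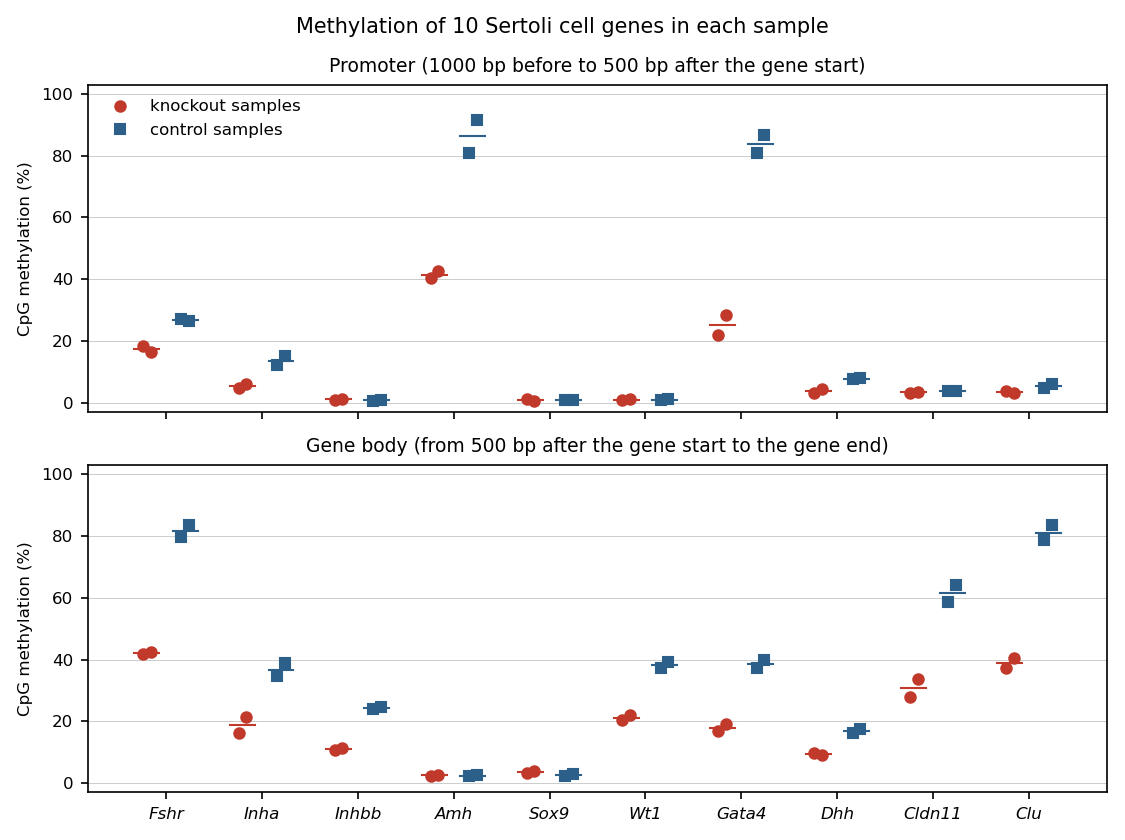
Methylation in percent of the promoter (upper panel) and gene body (lower panel) of each of the 10 genes, with 1 point for each of the 2 knockout samples (circles, left) and 2 control samples (squares, right) and a bar at each group's mean. The promoters of Amh and Gata4 are at 21.9% to 42.6% in knockouts and at 80.7% to 91.6% in controls, and 7 of 10 gene bodies are clearly lower in knockouts.

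Among the hormone and receptor genes, Amh lost the most promoter methylation. The Amh promoter (chr10:80804240-80805740) had 40.4% and 42.6% in the knockout samples and 80.9% and 91.6% in the control samples. Its groups did not overlap, and the means were 41.5% ± 1.57 in knockouts and 86.3% ± 7.52 in controls (SD, n = 2 each), a difference of -44.7 points (adjusted p = 2.17e-05, limma). It retained 48.1% of the control level, near the median of 51.2% over the 7243 promoters at 80% or more in controls. The Amh start lies 318 bp from the end of the upstream gene Sf3a2, so its promoter window includes the end of that gene.

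Fshr and Inha had lower promoter values in both knockouts by less than the 10-point minimum. The Fshr promoter (chr17:89200175-89201675) had 18.3% and 16.4% in knockouts and 27.0% and 26.6% in controls, a difference of -9.49 points (adjusted p = 0.0150, limma), and the groups did not overlap. Leaving out 1 sample in turn gave -8.56 to -10.4 points for Fshr. With 500 bp on either side of the start the Fshr difference was only -2.29 points (adjusted p = 0.461, limma). It was -10.4 points with each sample on its own cytosines and -11.8 points with the strands of each CpG averaged first. In the window from 2000 bp before the start it was -16.2 points (adjusted p = 4.06e-06, limma). The Inha promoter (chr1:75506077-75507577) had 4.77% and 6.08% in knockouts and 12.1% and 15.0% in controls, a difference of -8.15 points (adjusted p = 0.000126, limma). This window faces the start of the oppositely directed gene Obsl1, 591 bp away, and holds that gene's CpG-rich start. The Inhbb promoter (chr1:119421748-119423248), with 105 CpGs, had 1.02% and 1.21% in knockouts and 0.730% and 0.884% in controls. The difference of 0.31 points was not called (adjusted p = 0.209, limma).

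For Inha the choice of start mattered. RefSeq's promoter table places the start inside the gene span, and around that start the 1500-bp window had 22.6% and 31.0% in the knockout samples and 50.9% and 60.6% in the control samples. The groups did not overlap, and the difference of -29.0 points was called lower (adjusted p = 0.000155, limma), as were 40.2% of promoters placed in this way. The 1-kb windows show the same step. The window centred 577 bp before the start of the span had 1.18% and 0.810% in knockouts and 1.48% and 1.62% in controls. The window centred 423 bp after it had 23.9% and 32.2% in knockouts and 55.6% and 66.5% in controls. Only the window after the start was called lower. This alternative was added after the data were seen.

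Among the transcription factor genes, Gata4 stood apart from Sox9 and Wt1 at the annotated start. The Gata4 promoter (chr14:63271212-63272712, minus strand) had 21.9% and 28.4% in the knockout samples and 80.7% and 86.5% in the control samples. The means were 25.2% ± 4.58 in knockouts and 83.6% ± 4.14 in controls (SD, n = 2 each), a difference of -58.4 points (adjusted p = 1.22e-05, limma). By size of loss it ranked 11 of 23104 promoters. It retained 30.1% of the control level, and 1 of the 7243 promoters at 80% or more in controls retained less, though whether Gata4 differs from other promoters was not tested. This window of 17 CpGs lies at the outermost annotated start. Stretches further inside Gata4, given below, were nearly unmethylated in both groups. Sox9 had 1.16% and 0.622% in knockouts and 0.954% and 0.919% in controls. Wt1 had 0.978% and 1.10% in knockouts and 0.780% and 1.17% in controls. The Sox9 and Wt1 groups overlapped, and both promoters were nearly unmethylated in every sample. Wt1 shares its start region with the oppositely directed long noncoding gene Wt1os, which begins 19 bp away.

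The 3 genes of signalling, barrier and secretion had low promoters in both groups. Dhh had 3.19% and 4.62% in knockouts and 7.61% and 7.93% in controls (difference -3.86 points, adjusted p = 0.00179, limma). Cldn11 had 3.32% and 3.52% in knockouts and 3.78% and 3.80% in controls (adjusted p = 0.630, limma). Clu had 3.80% and 3.07% in knockouts and 4.88% and 6.19% in controls (difference -2.10 points, adjusted p = 0.0228, limma). None of these met the 10-point minimum, although in all 3 both knockout values were below both control values. When the window began 2000 bp before the start, which takes in methylated DNA upstream, Fshr, Dhh and Clu were called lower as well, for 5 of 10 promoters, against 50.7% of all promoters under that window.

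The gene bodies, from 500 bp after the start to the gene end, were lower in knockouts for 7 of the 10 genes, against 92.2% of 15218 bodies in the genome, and higher for none, against 0.0591% (9 bodies, and 31 without knockout replicate 2). The 3 exceptions, Amh, Sox9 and Dhh, had the least methylated bodies in the controls. Clu had the largest loss, with 37.2% and 40.5% in the knockout samples and 78.7% and 83.4% in the control samples, a difference of -42.2 points (adjusted p = 8.59e-30, limma). The Fshr body had 41.9% and 42.6% in knockouts and 79.8% and 83.6% in controls, a difference of -39.5 points. The Cldn11 body had 28.0% and 33.6% in knockouts and 58.8% and 64.2% in controls, a difference of -30.7 points. In each of these 3 genes the controls were above 58% and the groups were far apart.

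The other called bodies were less methylated to begin with. Gata4 had 16.8% and 19.2% in knockouts and 37.2% and 39.9% in controls. Inha had 16.1% and 21.3% in knockouts and 34.5% and 38.9% in controls. Wt1 had 20.4% and 21.9% in knockouts and 37.3% and 39.2% in controls. All 3 kept between 46.7% and 55.2% of the control level. Inhbb had 10.8% and 11.5% in knockouts and 24.0% and 24.6% in controls, a difference of -13.2 points. Measured from 2000 bp after the start, the Inha difference was -1.20 points and no longer called, since that leaves the end of this short gene, while the Inhbb difference was -32.9 points. The p-values of gene bodies rest mostly on a variance pooled over bodies of like level.

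Dhh, Amh and Sox9 were not called. The Dhh body had 9.68% and 8.96% in knockouts and 16.1% and 17.5% in controls, a difference of -7.45 points (adjusted p = 1.48e-09, limma) that was under the minimum. The Amh body had 2.30% and 2.77% in knockouts and 2.31% and 2.62% in controls, and its groups overlapped. The Sox9 body had 3.26% and 3.99% in knockouts and 2.30% and 2.89% in controls, a difference of 1.03 points (adjusted p = 0.0381, limma). Both Sox9 knockout values were above both control values, by less than the minimum difference. The difference was 0.66 points without knockout replicate 2 (adjusted p = 0.276, limma) and 0.51 points with each sample on its own cytosines (adjusted p = 0.460, limma).

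Measured in points, promoter and body lay closer together in the knockouts than in the controls. Averaged over the 10 genes, the promoter was at 9.89% and 10.8% in the knockout samples and at 21.9% and 24.1% in the control samples. The body was at 18.6% and 20.6% in knockouts and at 37.1% and 39.7% in controls. Promoter minus body was -8.75 and -9.86 points in knockouts and -15.1 and -15.6 points in controls. The difference between the groups was 6.08 points and larger than the spread within either, with an exact two-sided permutation p of 0.3333, the smallest that 2 against 2 samples allow. Because a loss in proportion to the control level narrows any such gap in points, this value cannot show that promoters lost a smaller share. Whether promoters and bodies lost different shares was not tested. The promoter was below the body in 8 of 10 genes in both groups, the exceptions in both being Amh and Gata4. Without these, an alternative added after the data were seen, the difference was 17.9 points, and taking the median over genes it was 11.7 points. With the starts of RefSeq's promoter table, also added after the data were seen, it was 4.04 points. Around that start the Inha promoter, whose window then overlaps the body, was above the body as well. It had 22.6% and 31.0% in knockouts and 50.9% and 60.6% in controls.

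**Figure D3:**
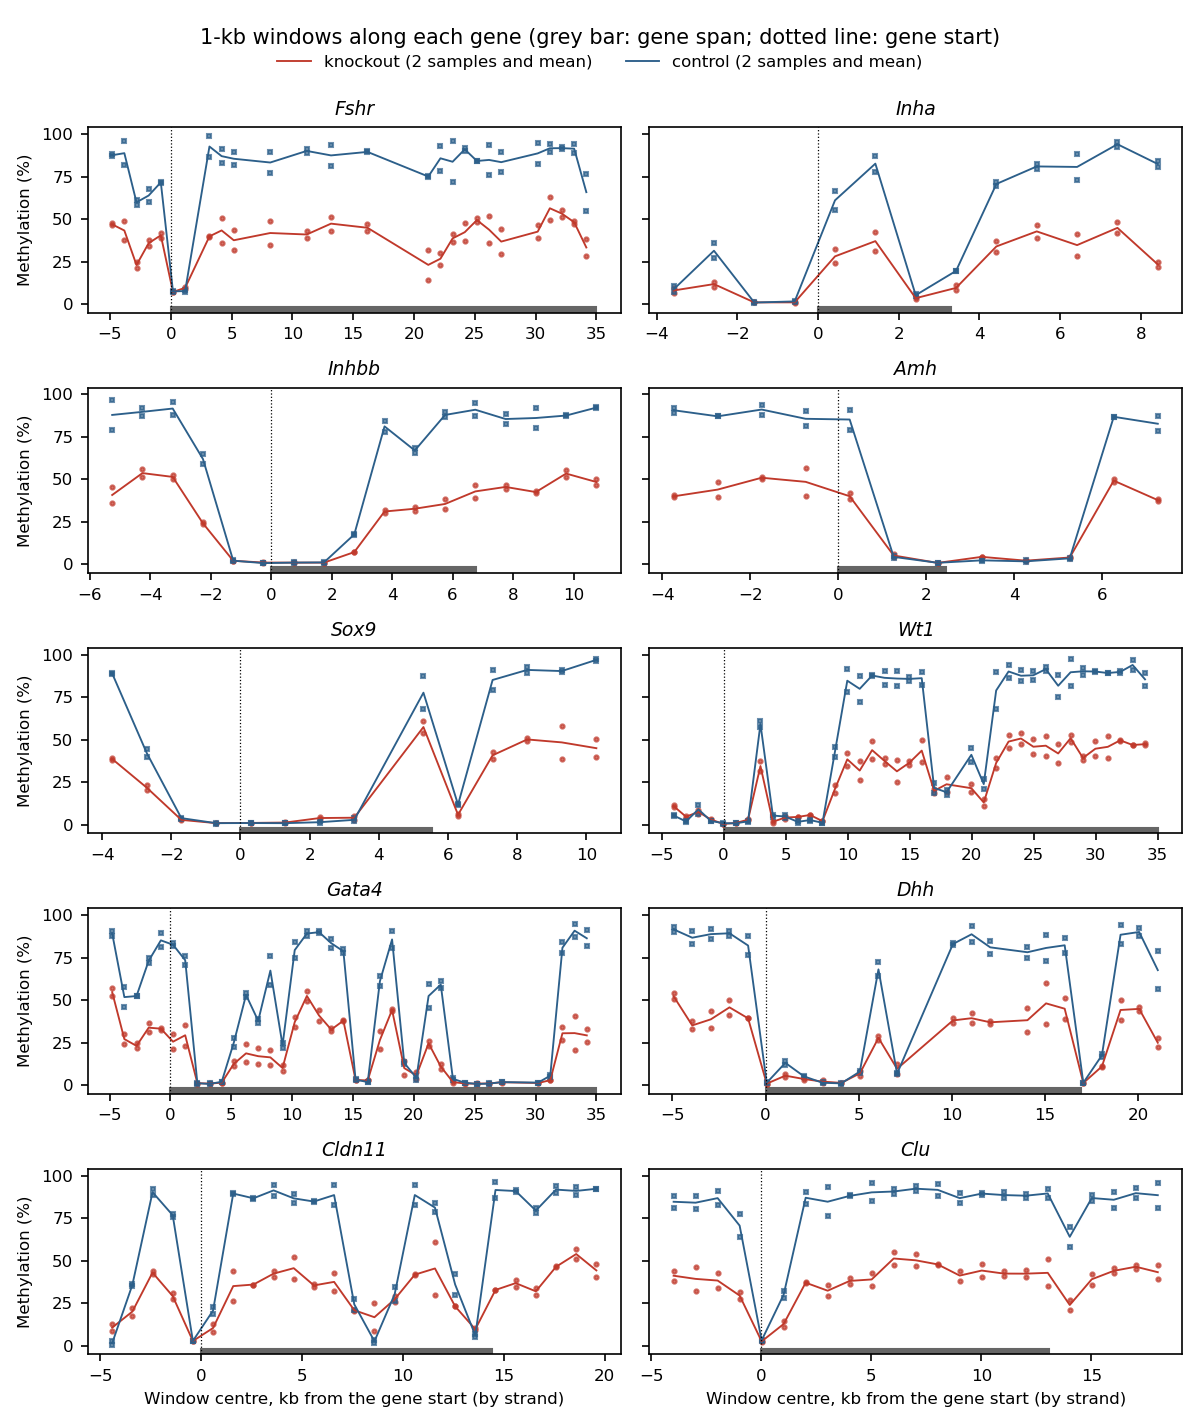
Methylation in percent of 1-kb windows along each gene against the distance of the window centre from the gene start in kb, read in the direction of the gene, up to 35 kb after the start. Points are single samples, red lines knockout means and blue lines control means, drawn straight across windows without values. The 2 lines meet where methylation is near 0, as at the start of Inhbb, Sox9 and Wt1 and within Amh and Gata4, and stand apart at most other windows, with exceptions in Wt1 and Cldn11.

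Several low regions had close levels in both groups, and 10 low windows with higher knockout values are given further on. In Inhbb the windows from 1252 bp before to 1748 bp after the start were at 0.940% to 2.17% in the knockout samples and at 0.695% to 2.36% in the control samples. In Sox9 the windows from 710 bp before to 1290 bp after the start were at 0.874% to 1.69% in knockouts and at 0.768% to 1.19% in controls. The next Sox9 window, at 2290 bp, had 4.48% and 3.49% in knockouts and 2.11% and 0.973% in controls. Amh had its low region after the start. Its windows centred 260 bp after the start and further upstream were methylated, whereas the 5 windows from 1260 to 5260 bp after the start, which run past the gene end toward Jsrp1, were at 0.834% to 5.89% in knockouts and at 0.788% to 4.97% in controls. None of these windows met the 10-point minimum.

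Gata4 combined a methylated annotated start with unmethylated stretches inside the gene. Windows centred 2212 to 4212 bp after the start were at 0.681% to 1.57% in knockouts and at 0.496% to 2.03% in controls. Another such stretch, from 23212 to 27212 bp after the start, was at 0.641% to 2.56% in knockouts and at 0.626% to 4.44% in controls. At its edge, the window centred 22212 bp after the start, with 7 CpGs measured, had 12.6% and 9.37% in the knockout samples and 57.0% and 61.4% in the control samples. It retained 18.6% of the control level, the smallest share among the 331 windows of the 10 genes with a control mean of 20% or more. It was picked out after its values were seen. RefSeq's span begins at the outermost annotated start, and which start these cells use is unknown.

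Of those 331 windows, 4 were not called lower, and all lay in the bodies of Wt1 and Cldn11. The Wt1 window centred 16971 bp after the start had 21.3% and 18.7% in knockouts and 18.8% and 24.7% in controls. The Wt1 window at 45971 bp had 26.5% and 37.4% in knockouts and 48.4% and 38.2% in controls. In the first the groups overlapped, and in the other both control values were above both knockout values without passing the test. The Cldn11 window at 7580 bp had 20.6% and 21.0% in knockouts and 21.0% and 27.5% in controls. The Cldn11 window at 9580 bp had 29.0% and 25.4% in knockouts and 26.0% and 34.2% in controls. In both Cldn11 windows the groups overlapped. Between them lies the window at 8580 bp, the single member window called higher, with 8.60% and 24.8% in knockouts and 1.70% and 3.38% in controls (adjusted p = 0.00138, limma). It rested on 14 of 42 CpGs, and without knockout replicate 2 its difference was 6.05 points and not called.

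With no minimum difference, 10 windows had higher values in knockouts at an adjusted p under 0.05 in limma, against 0.64% of windows in the genome called higher by that rule. Of these 10, 5 lay in Wt1, 3 in Cldn11 and 1 each in Amh and Sox9. Their control means were all between 1.20% and 6.01%. Windows under 20% in controls made up 17.0% of the windows at these genes and 4.44% of those in the genome. The 0.64% covers windows of every control level, so it is not the share for windows of like level. In Wt1 the window centred 4029 bp before the start had 11.5% and 10.6% in knockouts and 5.23% and 5.73% in controls. The Cldn11 window centred 4420 bp before the start had 12.8% and 8.38% in knockouts and 0.347% and 2.51% in controls. In both windows the groups did not overlap. The germline gene promoters that somatic cells methylate also stood higher in both knockout samples, by the medians given above, and the link between the 2 observations was not tested.

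**Figure D4:**
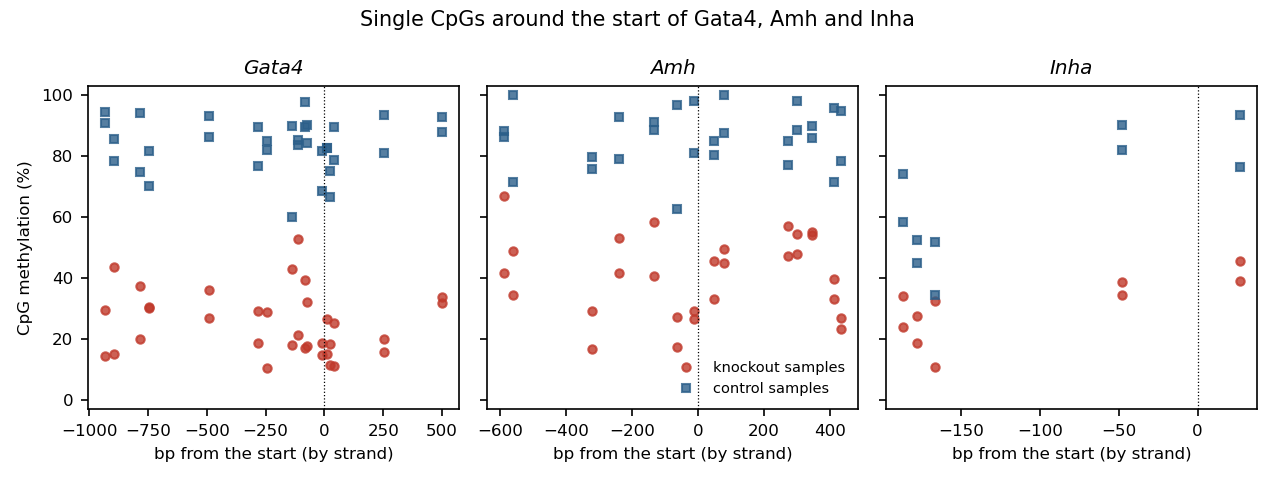
Methylation in percent of single CpGs against their distance in bp from the gene start of Gata4 and Amh and from the RefSeq promoter table's start of Inha, read in the direction of the gene. Each CpG has 2 knockout samples (circles) and 2 control samples (squares), and in Gata4 all knockout points lie below all control points of the same CpG.

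Single CpGs of the called promoters were lower throughout the window. Gata4 had 17 CpGs, with means of 15.0% to 37.0% in knockouts and 71.0% to 93.7% in controls. All 30 measured cytosines of Gata4 had both knockout values below both control values. The largest difference, -70.8 points, was at the CpG 933 bp before the start, with 29.4% and 14.3% in knockouts and 90.9% and 94.4% in controls. The smallest, -44.5 points, was 140 bp before the start, with 18.2% and 42.9% in knockouts and 90.0% and 60.0% in controls. These CpGs rested on 1 cytosine each.

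In Amh the 14 CpGs had means of 22.3% to 54.6% in knockouts and 77.7% to 93.8% in controls. Of 27 cytosines, 26 had both knockout values below both control values. The CpG 11 bp before the start had 29.2% and 26.5% in knockouts and 81.0% and 98.1% in controls, the largest difference of the 14 at -61.7 points. The CpG 272 bp after the start had 47.1% and 56.9% in knockouts and 77.0% and 84.9% in controls, the smallest at -29.0 points.

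The 5 CpGs capitalised in the Inha sequence, picked out after their values were seen, had lower control levels at the 3 CpGs farthest upstream than at the other 2, with no steady trend with distance. Those 3, 187 to 167 bases before the start, were between 10.7% and 34.0% in knockouts and between 34.3% and 74.1% in controls. The start meant here is the one that RefSeq's promoter table places inside the gene span. The CpG 48 bases before the start had 38.6% and 34.3% in knockouts and 82.1% and 90.1% in controls. The CpG 27 bases after it had 39.0% and 45.7% in knockouts and 76.3% and 93.3% in controls. At each of the 5 both knockout values lay below both control values. Of the 23 CpGs capitalised in Inhbb, by contrast, most were listed at 0 in all samples.

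Genes that work with these 10, or that mark neighbouring cells, were read in the same way and are described by counts. For every list below, the share over all promoters was 42.8% called lower and 0.281% called higher. Of 18 receptors, ligands and signal carriers of FSH, inhibin and AMH, 14 promoters were measured and 2 were lower in knockouts, with none higher. Amhr2, the AMH receptor, had 42.5% and 43.1% in knockouts and 84.4% and 82.2% in controls. Fshb, the beta subunit of FSH made in the pituitary, had 45.1% and 47.7% in knockouts and 75.2% and 90.5% in controls. The other 12 were under 20% in controls. None of the 8 measured promoters of 11 hedgehog pathway genes was called, and all 8 were under 8.97% in every sample.

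Of 15 further factors of the gonad, 6 promoters were measured and 1 was lower, that of Ptgds, a prostaglandin D synthase, with 42.8% and 45.9% in knockouts and 85.3% and 92.2% in controls. Of 17 tight junction and adhesion genes, 13 were measured and 1 was lower, that of Tjp3, which encodes a junction scaffold protein, with 33.7% and 38.8% in knockouts and 73.2% and 83.6% in controls. Other Sertoli cell genes had 3 lower promoters among 7 measured of 14, close to the 42.8% of all promoters. The hormone-binding globulin gene Shbg had 37.6% and 36.7% in knockouts and 80.3% and 86.7% in controls. Cst9, a cystatin gene, had 29.8% and 37.1% in knockouts and 82.4% and 85.0% in controls. The X-linked homeobox gene Rhox5 had 52.0% and 48.9% in knockouts and 84.6% and 87.6% in controls, over 6 CpGs. In each of these genes the groups did not overlap.

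Of 8 Leydig cell genes, 6 promoters were measured and 3 were lower, those of the steroid enzymes Hsd3b1, Hsd3b6 and Hsd17b3, with knockout means of 39.4% to 48.8% and control means of 86.0% to 94.3%. Of 5 peritubular cell genes, 3 were measured and 2 were lower, Cnn1 (calponin) with 14.9% and 22.9% in knockouts and 50.4% and 61.4% in controls, and Acta2 (smooth muscle actin) with 10.4% and 9.05% in knockouts and 19.2% and 24.1% in controls. Germline gene promoters went the other way, with 5 of 11 measured of 12 higher and none lower, against 0.281% of all promoters higher. Mael had 14.8% and 18.5% in knockouts and 1.70% and 6.48% in controls. Dazl had 21.2% and 13.8% in knockouts and 7.92% and 4.06% in controls. Sycp3 had 17.4% and 16.9% in knockouts and 4.46% and 8.37% in controls. Of 10 measured imprinted promoters of 12, 1 was lower, that of Snrpn, with 36.3% and 30.4% in knockouts and 65.6% and 64.9% in controls over 5 CpGs. The Snrpn window lies at the outermost annotated start of a long span. Whether it holds the maternally methylated stretch was not checked, so it cannot be read as loss at an imprinted promoter.

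Median promoter differences were -2.98 points over the Sertoli cell genes, -2.74 over all promoters and -0.13, -0.09, -0.17, -0.52 and -1.35 points over the FSH, hedgehog, gonad factor, junction and other Sertoli lists. They were -23.3 points over Leydig cell genes, -12.0 over peritubular cell genes, 2.20 over imprinted genes and 8.90 over germline genes. At the bodies, 7 of 10 Sertoli cell genes were lower, as were 14 of 15 FSH, inhibin and AMH partners, 7 of 8 hedgehog genes, 4 of 7 gonad factors, 10 of 13 junction genes and 7 of 7 other Sertoli cell genes. So were 5 of 6 Leydig cell genes, 3 of 3 peritubular cell genes, 3 of 7 imprinted genes and 9 of 11 germline genes. Of all bodies in the genome, 92.2% were lower. The median body difference was -17.6 points over the 10 Sertoli cell genes and -34.0 points over all bodies. The lists are small and were read as counts alone.

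**Figure D5:**
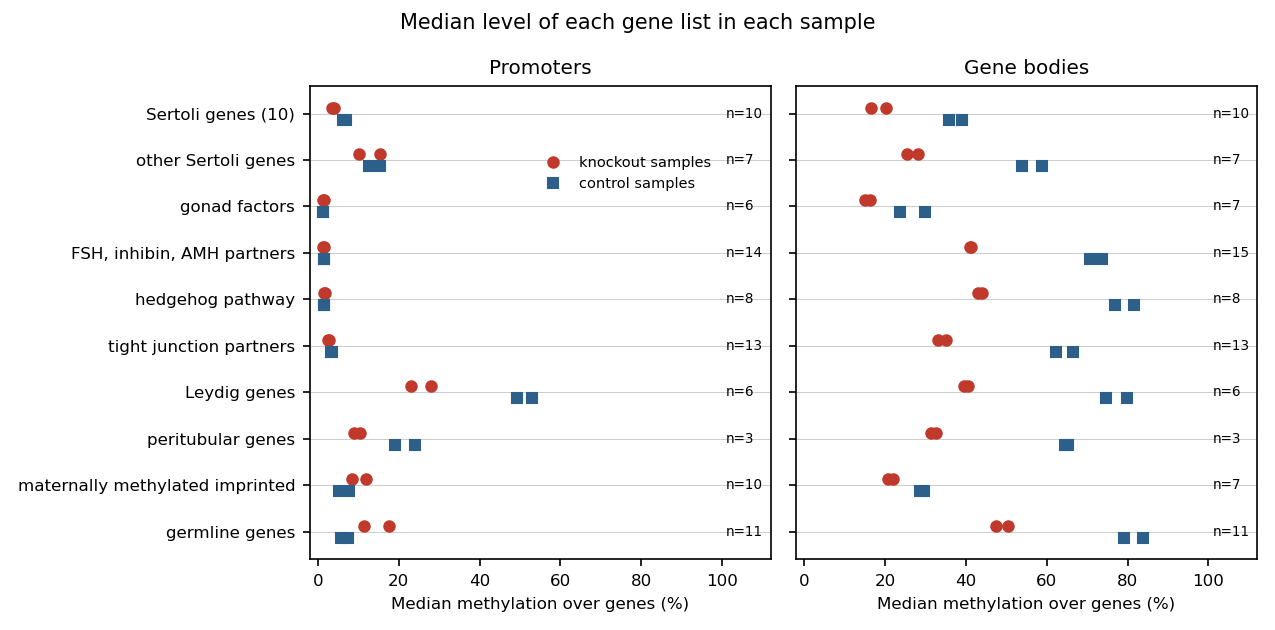
Median methylation in percent over the measured genes of each list, at promoters (left panel) and gene bodies (right panel), with 1 circle for each knockout sample and 1 square for each control sample, and n the genes measured. Promoter medians of the 10 Sertoli cell genes are 3.56% and 4.07% in knockouts and 6.24% and 7.06% in controls, and their body medians are 16.4% and 20.3% in knockouts and 35.9% and 39.1% in controls.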

How the data were processed

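The authors deposited 1 table with the percent of reads methylated at each CpG cytosine in each sample, from libraries made by post-bisulfite adaptor tagging (PBAT), per the labels' protocols. The aligner and caller were not given in the sources used here, and the build was mm10, per the submitters' processing notes. The table's title names 10 reads, but read depth per value is unknown, so no counting interval could be given. Values were present at 28999710 and 29530971 cytosines in knockout replicates 1 and 2 and at 29774194 and 29509008 in control replicates 1 and 2. Analyses used the 22421484 cytosines measured in all 4 samples, with genome means of 38.1% and 38.4% in knockouts and 69.1% and 72.9% in controls. Chromosome X was listed up to position 60490732 and had 42175 of these cytosines, against 659965 on chromosome 19. Shares given for the genome thus rest almost wholly on autosomes.

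A region's level was the mean over its cytosines. Windows needed 3 CpGs, and promoters and gene bodies 5. Levels m as fractions were tested as log2((m + 0.01)/(1 - m + 0.01)) with limma 3.58.1 (R 4.3.3), trended and robust, over all regions of a kind, and checked on simulated data. Python 3.11.15 with NumPy 2.4.6, pandas 2.3.3, SciPy 1.17.1 and Matplotlib 3.10.9 was also used. Gene spans came from RefSeq GRCm38.p6. Strands came from its promoter table, and for Amh, Sox9, Wt1, Gata4 and Clu from general knowledge. Bodies were fitted for protein-coding genes with a known strand, 17279 of 21631, where enough CpGs were measured. Shares over all promoters and bodies thus leave out genes without a strand. Of 112 genes in the other lists, 30 had no strand. All 10 members are named, and of each other list at most 3 genes, those called with the largest promoter difference. The members and lists were chosen with earlier results of these data known.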

Additional observations from a re-analysis of the deposited data

How the results depend on the processing

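No called difference changed sign under the alternatives run. Among differences near 0 that were not called, Sox9, Wt1 and Cldn11 promoters and the Amh body changed sign under some, as Cldn11 did with 500 bp on either side (0.48 points). The number of bodies lower in knockouts was 6 to 8 of 10 throughout. Tested on each region's own spread, 191 of 399 windows (54.9% in the genome) and 0 of 10 promoters (0.0649%) were lower, and Amh and Gata4 had adjusted p of 0.0905 and 0.0630 in limma. With at least 10 CpGs per region, 110 of 177 windows were lower, against 85.3% in the genome. The promoter count was 6 with no minimum difference (52.7% in the genome) and 5 with windows from 2000 bp before the start (50.7%). Leaving out 1 sample in turn, with a lone sample assumed to vary like the other group, gave 321 to 328 windows, 2 to 3 promoters, 7 bodies and a promoter minus body change of 5.53 to 6.64 points. The Cldn11 window was called higher in neither untransformed fractions (adjusted p = 0.0988, limma) nor own cytosines per sample (8.81 points). With the replicate number as a block, 329 windows, 2 promoters and 7 bodies were lower, and the change of 6.08 points had an exact p of 0.5 by sign flips. The deviations of same-numbered samples had correlations of 0.028, 0.118 and 0.126 over windows, promoters and bodies, and the labels give the number no meaning. Read depth, which is unknown, limits single CpGs and windows with few CpGs.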
